A study of Homo sapiens with 17 samples.

Results

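The genes described here are the MMP, ADAM and ADAMTS metalloproteinases and their TIMP inhibitors. They were taken as every gene whose single platform symbol is MMP, ADAM or ADAMTS followed by a number, or TIMP1 to TIMP4, with the brightest probe set kept for each gene. The rule gave 64 of the 17958 genes tested: 22 MMP, 21 ADAM, 17 ADAMTS and 4 TIMP genes. TIMP3 and the pseudogene ADAM6 had more than 1 probe set.

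RNA levels were measured on 17 Affymetrix arrays from A549 and H2122, human lung adenocarcinoma lines that have both lost functional LKB1, the kinase encoded by STK11. Each line was infected with a pBABE retrovirus holding wild-type LKB1, the kinase-dead mutant LKB1 K78I, or no insert (pBABE). There were 3 arrays a group, except 2 for H2122 pBABE, so the 6 groups differ by line and insert. Cells of every group carried the vector, were selected in 1 µg/mL puromycin for 2 weeks and were kept in 5% serum, and 130 ng of RNA was labelled for each array. The labels describe stable transduction and name no clones. The question for each gene is whether its level differed between wild-type LKB1 and the controls, and whether that difference was alike in both lines. No label says that replicates were separate cultures, so p-values measure the spread between these arrays, which may be technical, and few arrays a group limit the precision.

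Metalloproteinases of these families use a zinc ion to cut proteins outside the cell. Most MMPs are secreted and cut matrix proteins, the membrane-type MMPs do so at the cell surface, the proteolytic ADAMs release the outer part of membrane proteins such as growth factor precursors, and the ADAMTS enzymes are secreted and act on matrix proteins. TIMPs bind the active site and block it, and in lung tumours the balance of enzyme and inhibitor bears on matrix turnover and invasion.

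The stretches upstream of 6 genes whose levels the results turn on are shown, since these are the windows in which motif matches were looked for. Each is the 250 bases before the RefSeq start in GRCh38.p14, 5′ to 3′ on the gene's strand, with motif matches in capitals. Of the 64 genes ADAM19 and MMP7 had the largest rises in both lines, ADAM12 rose in both, MMP14 rose in H2122, and TIMP1 and ADAMTS6 rose in A549.
ADAM19, chr5:157575776-157576025, minus strand, no match: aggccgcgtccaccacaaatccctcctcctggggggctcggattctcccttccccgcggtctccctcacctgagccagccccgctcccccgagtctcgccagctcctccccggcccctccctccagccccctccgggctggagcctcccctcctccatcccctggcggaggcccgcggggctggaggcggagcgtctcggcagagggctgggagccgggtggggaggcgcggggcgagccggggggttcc
MMP7, chr11:102530748-102530997, minus strand, an AP-1 site TGAGTCA 67 bases and a TATA box TATAAA 30 bases before the start: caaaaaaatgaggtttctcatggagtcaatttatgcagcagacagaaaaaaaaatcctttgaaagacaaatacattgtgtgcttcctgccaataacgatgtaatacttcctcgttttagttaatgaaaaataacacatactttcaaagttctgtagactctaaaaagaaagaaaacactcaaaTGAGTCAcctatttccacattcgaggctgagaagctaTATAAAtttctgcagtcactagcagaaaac
ADAM12, chr10:126388478-126388727, minus strand, GC boxes 217, 164 and 129 bases before the start: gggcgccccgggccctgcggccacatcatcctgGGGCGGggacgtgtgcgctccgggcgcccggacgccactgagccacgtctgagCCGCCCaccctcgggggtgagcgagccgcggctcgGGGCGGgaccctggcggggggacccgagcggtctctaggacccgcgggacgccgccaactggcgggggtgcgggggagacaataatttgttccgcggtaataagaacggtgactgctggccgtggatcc
MMP14, chr14:22836335-22836584, plus strand, a GC box 66 bases before the start: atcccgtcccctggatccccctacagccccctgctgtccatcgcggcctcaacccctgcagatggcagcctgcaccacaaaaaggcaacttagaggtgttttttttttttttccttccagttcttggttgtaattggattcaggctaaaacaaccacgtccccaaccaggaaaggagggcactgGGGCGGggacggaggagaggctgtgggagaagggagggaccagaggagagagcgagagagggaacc
TIMP1, chrX:47582186-47582435, plus strand, GC boxes 135 and 45 bases before the start: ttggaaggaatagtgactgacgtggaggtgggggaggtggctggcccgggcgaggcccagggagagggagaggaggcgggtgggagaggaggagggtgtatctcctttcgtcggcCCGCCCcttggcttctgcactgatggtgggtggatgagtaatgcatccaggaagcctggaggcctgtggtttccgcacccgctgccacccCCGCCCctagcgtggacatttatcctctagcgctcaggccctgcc
ADAMTS6, chr5:65481921-65482170, minus strand, a TEAD site 200 bases before the start: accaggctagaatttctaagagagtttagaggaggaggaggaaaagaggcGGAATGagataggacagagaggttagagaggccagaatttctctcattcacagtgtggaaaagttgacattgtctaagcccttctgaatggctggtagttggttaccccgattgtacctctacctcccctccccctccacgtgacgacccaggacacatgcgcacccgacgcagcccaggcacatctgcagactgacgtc

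Motifs were searched on both strands, and a position is that of the match's first base on the gene's strand. The table held a promoter for 37 of the 64 genes. The AP-1 site TGANTCA lay in 4 of these (ADAMTS12, MMP10, MMP20 and MMP7), or 10.8%, beside 6.6% of all 27305 promoters. TATAAA lay in 7 (ADAMTS10, MMP10, MMP20, MMP21, MMP26, MMP7 and MMP8), or 18.9%, beside 11.1% of all. The GC box GGGCGG lay in 24, or 64.9%, beside 42.3%. GGAATG, the TEAD site, lay in 4, or 10.8%, beside 11.9%. The cyclic AMP response element TGACGTCA lay in 0, beside 1.77%. The 27305 promoters were not limited to the 17958 genes tested or to protein-coding genes, so they are an unlike background for the members. A match is a run of letters and is not shown to be bound.

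Some arrays went against their labels. STK11, which every LKB1 and K78I array should carry, stood at 10.52 on the A549 array labelled pBABE replicate 3, beside 6.88 and 7.38 on the other arrays of that group. It stood at 7.14 on the A549 array labelled K78I replicate 2, beside 10.54 and 10.42. Every A549 value below counts these arrays under their labels. The H2122 pBABE arrays stood at 6.33 and 6.22, and the other H2122 arrays at 11.2 to 11.35. By an exact permutation test, two-sided, STK11 differed between LKB1 and all controls of A549 by 0.95 (p = 0.464; no p below 0.0119 can be had) and of H2122 by 1.99 (p = 0.339; none below 0.0179), where the K78I controls carry the transcript too. For H2122 pBABE replicate 2, LKB1 replicate 3 and K78I replicate 3 source name and title name different constructs, and titles were used. STK11 went with the titles on these arrays, at 6.22 on pBABE replicate 2 and 11.26 on each of the others. It cannot tell LKB1 from K78I, so it does not settle those labels. The mean of 18 cell cycle genes was lowest on 3 control arrays, at -1.42 against its line mean on H2122 pBABE replicate 2, -0.58 on A549 K78I replicate 2 and -0.33 on A549 pBABE replicate 1. NKX2-1, SFTPB and NAPSA, which mark many lung adenocarcinomas, were low throughout, between 3.97 and 5.95. The array mean of 5 epithelial markers (EPCAM, KRT8, KRT18, KRT19 and CDH1) ran from 9.03 to 11.38, with single genes from 4.19 to 13.12. In A549, KRT19 stood at only 4.19 to 5.48 and EPCAM at 5.89 to 7.65. The mean of 4 endothelial markers lay between 3.73 and 4.38.

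Of the 64 genes, 9 passed the test in each line when LKB1 was set against both controls. In A549, 8 were higher and 1 was lower, and in H2122, 9 were higher and 0 lower (18 of the 64 had an unadjusted p under 0.05 in each, beside 3908 of all genes in A549 and 3461 in H2122). A call is an adjusted p under 0.05 by limma with Benjamini-Hochberg adjustment over all 17958 genes. The members' share, 14.1% in each line, stood beside 8.44% of all genes called in A549 (5.49% higher and 2.95% lower) and 7.28% in H2122 (4.99% higher and 2.29% lower). ADAM19, MMP7, ADAM12 and ADAMTS16 were called higher in both lines, and no other member was. The difference of the effect between lines passed for 3 of the 64 (MMP14, MMP13 and ADAM9), all higher in H2122, or 4.69% beside 3.6% of all genes (1.63% with the higher effect in A549 and 1.98% in H2122). Over all genes these 3 comparisons called 1515, 1308 and 647. Without the 3 arrays with conflicting labels 9 members were called in A549, 6 in H2122 and 1 in the difference, beside 1226, 422 and 209 of all genes. Without the 2 A549 arrays at odds with STK11 the counts were 10, 11 and 4, beside 1758, 1743 and 894. Grouping the H2122 arrays by source name gave 3, 0 and 0 members, beside 1041, 1 and 175 of all genes. Levels are log2 values throughout. In RNA from whole cultures, more cells that make a transcript and more transcript per cell cannot be told apart.

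**Figure D1:**
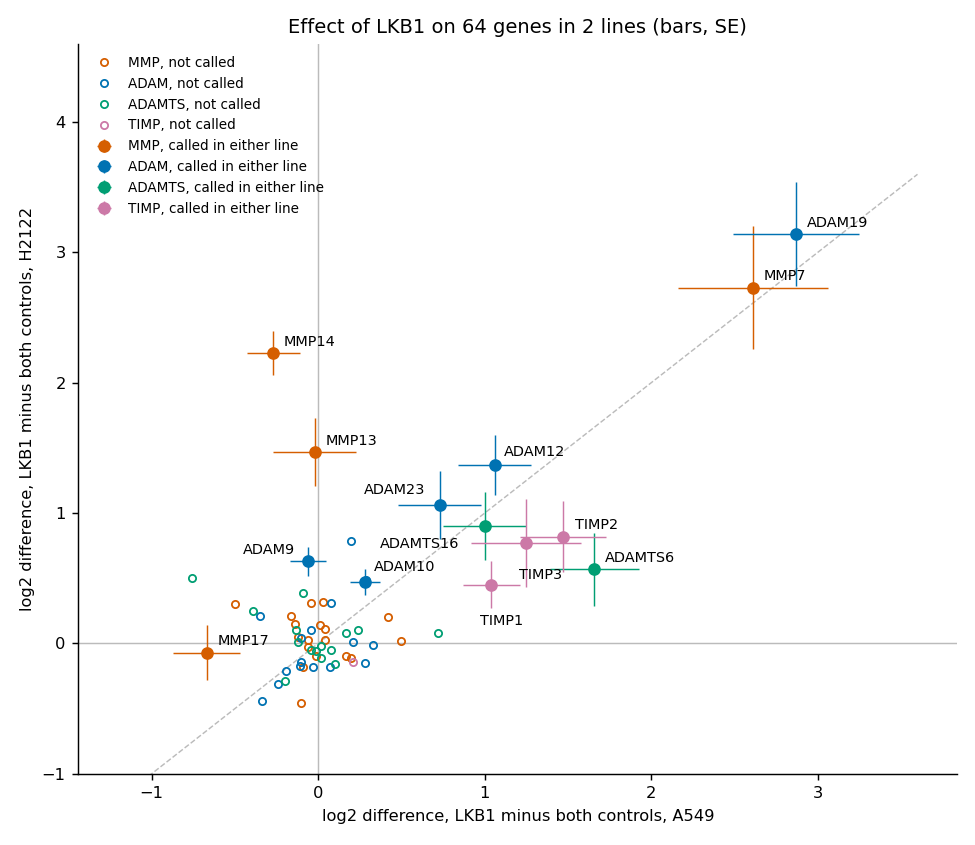
Differences in log2 level between LKB1 and both controls, in A549 on the horizontal axis and in H2122 on the vertical axis, for the 64 genes with standard error bars for those called in either line (filled points). ADAM19 and MMP7 lie far out on both axes near the diagonal of equal effects, MMP14 and MMP13 lie high on the H2122 axis and near 0 in A549, and MMP17 lies left of 0.

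By subfamily, 3 of the 4 TIMPs, 2 of 12 proteolytic ADAMs, 2 of 17 ADAMTS genes and 1 of 16 secreted MMPs rose in A549, and 1 of 6 membrane-type MMPs fell. In H2122, 4 of 12 proteolytic ADAMs, 2 of 16 secreted MMPs, 1 of 6 membrane-type MMPs, 1 of 17 ADAMTS genes, 0 of 4 TIMPs and 1 of the 9 ADAMs without the catalytic motif or made from pseudogenes rose. Beside these counts, 5.49% of all genes rose and 2.95% fell in A549, and 4.99% and 2.29% in H2122. The subfamilies are small and were not tested as sets. The median difference was 0.01 in A549 and 0.08 in H2122 over the 64 genes, and -0.02 and -0.04 over all genes. For the TIMPs alone it was 1.15 in A549 and 0.61 in H2122.

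A level of 6 was passed on no array by 37 of the 64 genes (16 MMP, 10 ADAM, 11 ADAMTS and 0 TIMP genes). No detection calls were used, so these low levels cannot be told apart from background. PTPRC, CDH5, COL3A1, DCN and LUM, which carcinoma cells should lack, lay between 2.51 and 5.01. They are low members picked from the marker lists after their values were seen, and other genes of those lists stood higher: CD68 at 7.97 to 9.45, PECAM1 at up to 6.32 and PDGFRA at up to 5.58.

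ADAM19 is a membrane-bound shedding protease that cuts neuregulins. In A549 its level was 5.48, 6.12 and 6.83 on the pBABE arrays, 6.2, 5.27 and 6.38 on the K78I arrays, and 8.2, 9.65 and 8.91 on the LKB1 arrays. All 3 LKB1 arrays lay above all 6 controls, by 2.87 ± 0.38 on the log2 scale (SE), 7.31-fold, adjusted p = 0.000228. In H2122 it stood at 6.35 and 5.44 with pBABE, at 7.7, 6.61 and 6.61 with K78I, and at 9.17, 9.91 and 9.64 with LKB1. Again no control array reached an LKB1 array, and the difference was 3.14 ± 0.4 (SE), 8.83-fold, adjusted p = 0.000162. Without the 3 arrays with conflicting labels the H2122 difference was 2.79, adjusted p = 0.0169, and without the 2 A549 arrays at odds with STK11 the A549 one stayed at 2.87, adjusted p = 0.000143.

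MMP7, or matrilysin, is a short secreted MMP made by epithelial cells that lacks the hemopexin domain. The A549 controls held it at 8.58, 7.58 and 9.69 with pBABE and 9.75, 8.35 and 10.39 with K78I, and the LKB1 arrays at 11.83, 11.43 and 11.76. The K78I array at 10.39 came nearest, and no control reached the LKB1 arrays. The difference was 2.61 ± 0.45 (SE), 6.12-fold, adjusted p = 0.00197. H2122 held it at 4.74 and 4.17 with pBABE, 4.66, 4.45 and 4.55 with K78I, and 7.96, 6.36 and 7.37 with LKB1. The rise was 2.73 ± 0.47 (SE), 6.61-fold, adjusted p = 0.00212, but its controls lay within the range of the genes that carcinoma cells should lack, so the fold starts from a level that cannot be told from background. Leaving out the 3 arrays with conflicting labels gave 2.51 and adjusted p = 0.0798.

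ADAM12, which cuts insulin-like growth factor binding proteins and heparin-binding EGF, stood at 4.88, 4.37 and 4.14 with pBABE, 4.64, 4.33 and 4.53 with K78I and 4.84, 6.02 and 5.76 with LKB1 in A549. LKB1 replicate 1 lay below the highest control, so the groups overlapped. The difference was 1.06 ± 0.22 (SE), 2.08-fold, adjusted p = 0.00736, but adjusted p = 0.056 without LKB1 replicate 2 and 0.0597 without LKB1 replicate 3. All 6 A549 controls, at 4.14 to 4.88, lay where a level cannot be told from background. H2122 held it at 6.78 and 7.26 with pBABE, 7.34, 7.03 and 6.92 with K78I and 8.44, 8.33 and 8.5 with LKB1, with no overlap. There it rose by 1.37 ± 0.23 (SE), 2.58-fold, adjusted p = 0.00172, and by 1.4, adjusted p = 0.0384, without the arrays with conflicting labels.

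ADAMTS16 is a secreted protease of the ADAMTS family. Its A549 levels were 6.05, 5.72 and 6.18 with pBABE, 6.18, 6.95 and 5.61 with K78I and 6.99, 7.38 and 6.96 with LKB1. The array labelled K78I replicate 2 lay only just under the lowest LKB1 array. The difference was 1.00 ± 0.25 (SE), 1.99-fold, adjusted p = 0.0205, which rose to 0.0596, 0.106 and 0.0603 when LKB1 replicate 1, 2 or 3 was left out. It passed against pBABE (1.13, adjusted p = 0.0298) and not against K78I (0.86, adjusted p = 0.101). H2122 gave 6.13 and 5.89 with pBABE, 6.04, 5.54 and 5.28 with K78I and 6.94, 6.33 and 6.87 with LKB1. The H2122 arrays did not overlap, and the difference was 0.90 ± 0.26 (SE), 1.86-fold, adjusted p = 0.0467. There it passed against K78I (1.09, adjusted p = 0.0458) and not against pBABE (0.71, adjusted p = 0.266). The call against both ended in 19 of 31 alternatives, with adjusted p between 0.0038 and 0.648, and without the 3 arrays with conflicting labels the difference was 0.67. For ADAM19, MMP7, ADAM12 and ADAMTS16 the A549 effect minus the H2122 effect was -0.27, -0.11, -0.31 and 0.10, with adjusted p between 0.767 and 0.972, which does not show that the effects were equal.

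**Figure D2:**
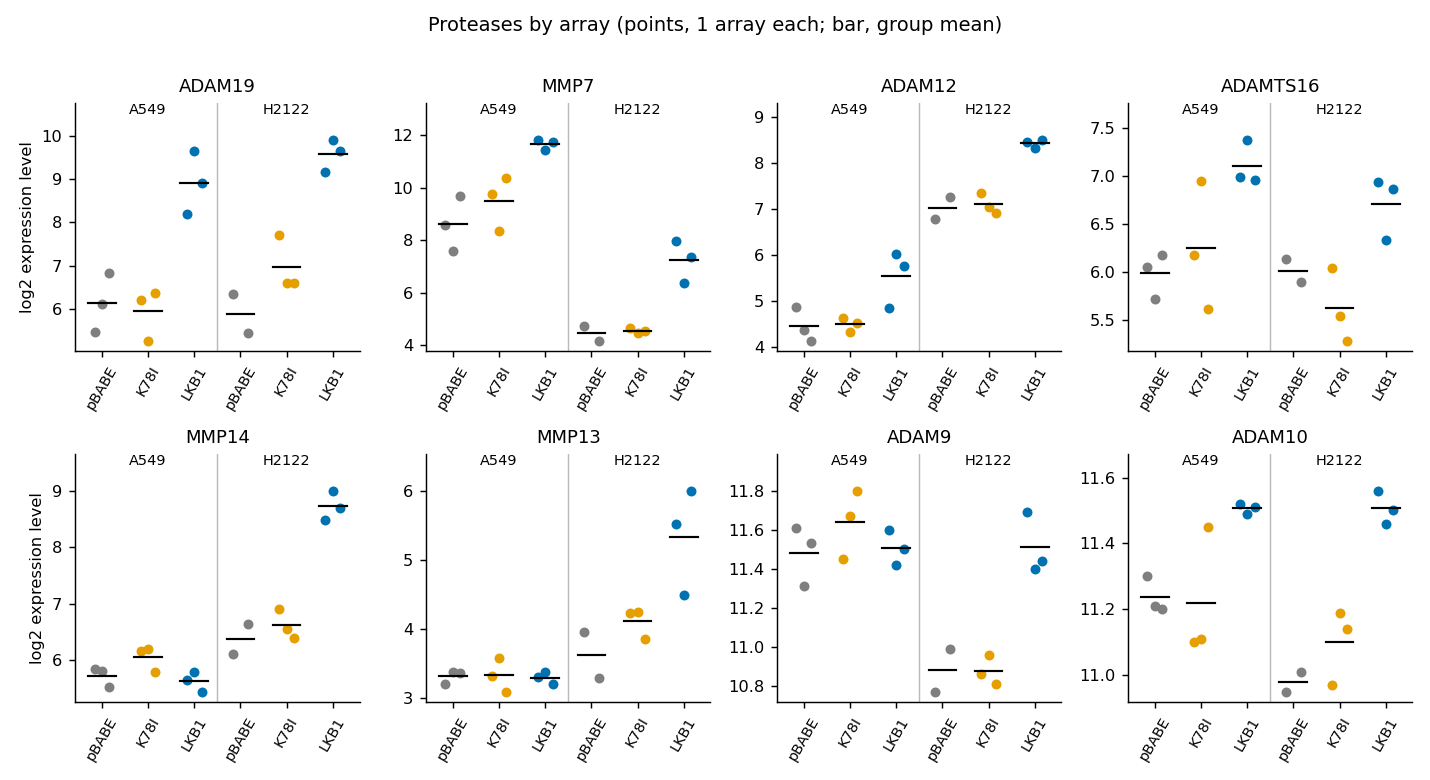
Log2 levels of 8 proteases by array (points, 1 array each) with group means as bars, in A549 and H2122 under pBABE, K78I and LKB1. In H2122 the LKB1 arrays of ADAM19, MMP7, ADAM12 and MMP14 stand above all controls, and in A549 MMP14 stays between 5.44 and 6.2.

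MMP14, the membrane-type 1 MMP that cuts collagen and activates pro-MMP2, rose in H2122, and its effect differed between the lines. H2122 levels were 6.1 and 6.64 with pBABE, 6.91, 6.56 and 6.4 with K78I, and 8.48, 9 and 8.69 with LKB1. The LKB1 arrays lay well above the controls, by 2.23 ± 0.17 (SE), 4.69-fold, adjusted p = 2.61e-06, and by 2.32, adjusted p = 0.000267, without the 3 arrays with conflicting labels. A549 levels were 5.85, 5.8 and 5.52 with pBABE, 6.16, 6.2 and 5.79 with K78I, and 5.64, 5.79 and 5.44 with LKB1. There LKB1 and control arrays overlapped, and the difference was -0.27 ± 0.16 (SE, adjusted p = 0.382). The A549 effect minus the H2122 effect was -2.50 ± 0.23 (SE, adjusted p = 4.22e-05).

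MMP13, collagenase 3, rose in H2122 from 3.96 and 3.29 with pBABE and 4.24, 4.25 and 3.85 with K78I to 5.52, 4.5 and 6.01 with LKB1. The LKB1 arrays did not overlap the controls but spread widely, and the control levels cannot be told from background. The difference was 1.47 ± 0.26 (SE), 2.78-fold, adjusted p = 0.00222, and 0.91, adjusted p = 0.085, without the arrays with conflicting labels. A549 levels lay between 3.09 and 3.58 on all 9 arrays, and the effect was -0.02 ± 0.25 (SE, adjusted p = 0.974). The difference between lines was -1.5 ± 0.36 (SE, adjusted p = 0.0312), a call lost in 12 of 29 alternatives.

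ADAM9, a shedding protease, stood at 10.77 and 10.99 with pBABE, 10.86, 10.96 and 10.81 with K78I, and 11.69, 11.4 and 11.44 with LKB1 in H2122. It rose by 0.63 ± 0.11 (SE), 1.55-fold, adjusted p = 0.00233, while the A549 arrays ran from 11.31 to 11.8 over all 9 arrays and differed by -0.06 (adjusted p = 0.835). The difference between lines was -0.69 ± 0.15 (SE, adjusted p = 0.0223), or -0.76, adjusted p = 0.0895, without the arrays with conflicting labels. The A549 controls were already higher than the H2122 controls by 0.69, and the H2122 LKB1 mean was 11.51 ± 0.16 (SD, n = 3) beside 11.51 ± 0.09 (SD, n = 3) with LKB1 in A549.

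ADAM10, the shedding protease of Notch and amyloid precursor protein, stood at 10.95 and 11.01 with pBABE, 10.97, 11.19 and 11.14 with K78I, and 11.56, 11.46 and 11.5 with LKB1 in H2122. The rise was 0.47 ± 0.10 (SE), 1.38-fold, adjusted p = 0.00668, and 0.50, adjusted p = 0.0842, without the arrays with conflicting labels. A549 arrays held it at 11.1 to 11.45 in the controls and 11.49 to 11.52 with LKB1, which did not overlap, with a difference of 0.28 (adjusted p = 0.0767). ADAM17, which releases TNF, was not called in either line, with differences of -0.35 (adjusted p = 0.163) in A549 and 0.21 (adjusted p = 0.508) in H2122.

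ADAM23, which has no active site and binds integrins, stood at 8.7 and 8.1 with pBABE, 9.16, 9.35 and 9.1 with K78I, and 9.98, 9.75 and 9.85 with LKB1 in H2122. It rose by 1.06 ± 0.26 (SE), 2.08-fold, adjusted p = 0.0214, but was called against pBABE (1.46, adjusted p = 0.0137) and not against K78I (0.65, adjusted p = 0.274). Its call was lost without LKB1 replicate 1, 2 or 3 or without pBABE replicate 2 (adjusted p between 0.0565 and 0.0988). Without the 3 arrays with conflicting labels the difference was 0.88 (adjusted p = 0.256), by source name 0.1 (adjusted p = 0.961), and against the pooled controls 0.97 (adjusted p = 0.0534). A549 held ADAM23 at 7 to 7.45 with pBABE, 6.17 to 7.72 with K78I and 7.69 to 8.03 with LKB1. The A549 difference of 0.73 was not called, and neither was the difference in effect between lines.

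ADAMTS6 is a secreted protease of the ADAMTS family. A549 levels were 6.11, 5.86 and 6.86 with pBABE, 6.39, 5.38 and 6.97 with K78I, and 7.95, 7.73 and 8.08 with LKB1. All LKB1 arrays lay above the controls, by 1.66 ± 0.27 (SE), 3.16-fold, adjusted p = 0.0012. In H2122 it was low, at 4.19 to 4.47 in the controls and 4.72 to 5.03 with LKB1, which did not overlap, and the difference of 0.57 did not pass (adjusted p = 0.289). The A549 effect minus the H2122 effect was 1.09 and did not pass (adjusted p = 0.166).

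MMP17, a membrane-type MMP held by a lipid anchor, was the only one of the 64 genes called lower with LKB1 than with both controls. Its A549 levels were 5.64, 5.58 and 6.35 with pBABE, 6.13, 5.75 and 5.98 with K78I, and 5.15, 5.22 and 5.33 with LKB1. The groups did not overlap and the level fell by 0.67 ± 0.20 (SE; the log2 difference is -0.67), 1.59-fold, adjusted p = 0.0481. The call was lost in 17 of 31 alternatives, where adjusted p reached 0.17, and H2122 gave -0.07 (adjusted p = 0.921).

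The TIMPs in A549 rose for 3 of 4. TIMP1 went from 9.94, 9.49 and 10.3 with pBABE and 10.09, 10.07 and 10.07 with K78I to 11.09, 10.95 and 11.07 with LKB1, by 1.04 ± 0.17 (SE), 2.06-fold, adjusted p = 0.0016. TIMP2, which also takes part in pro-MMP2 activation by MMP14, went from 7.5, 7.69 and 7.78 with pBABE and 7.78, 7.4 and 7.94 with K78I to 9.07, 9.22 and 9.14 with LKB1. Its difference was 1.47 ± 0.26 (SE), 2.76-fold, adjusted p = 0.00211. Neither TIMP1 nor TIMP2 overlapped between LKB1 and the controls in A549. TIMP3, which binds the matrix and blocks ADAM17, stood at 5.67, 4.86 and 5.56 with pBABE, 5.49, 6.1 and 4.66 with K78I, and 6.38, 6.81 and 6.74 with LKB1. It rose by 1.25 ± 0.33 (SE), 2.38-fold, adjusted p = 0.0266. That call was lost without LKB1 replicate 1, 2 or 3 or pBABE replicate 2 (adjusted p between 0.0575 and 0.117). With the mean of its probe sets the difference was 0.79, adjusted p = 0.117, and the other probe set differed by 0.32. TIMP4 ranged from 7.5 to 8.72 in A549 and differed by 0.21 (adjusted p = 0.729).

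**Figure D3:**
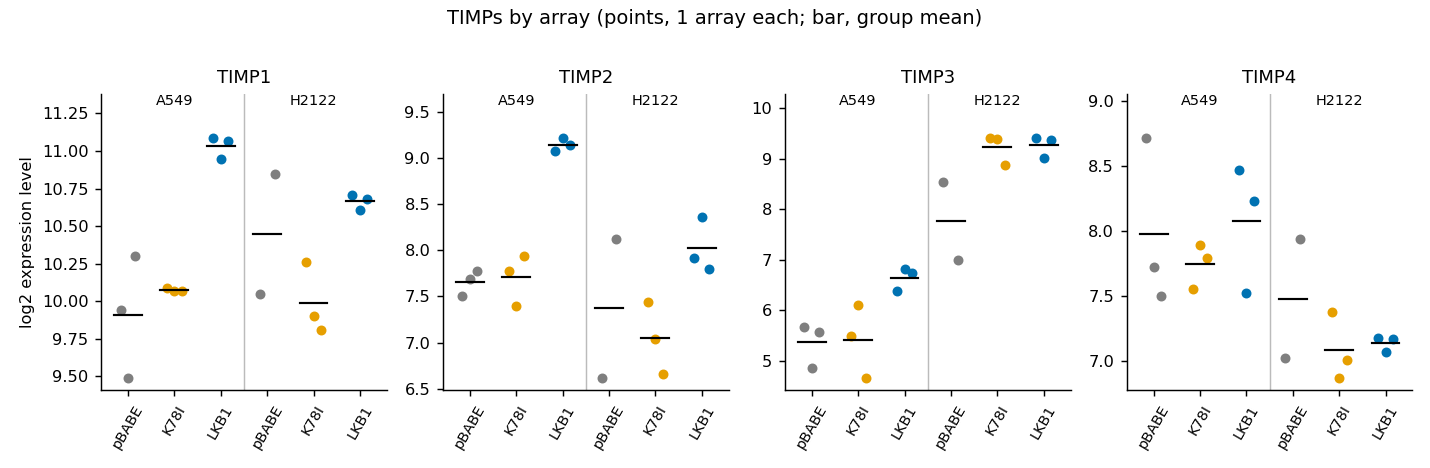
Log2 levels of TIMP1 to TIMP4 by array (points, 1 array each) with group means as bars, in A549 and H2122 under pBABE, K78I and LKB1. In A549 the LKB1 arrays of TIMP1, TIMP2 and TIMP3 lie above all controls, and in H2122 TIMP1 and TIMP2 of pBABE replicate 2 lie within or above the LKB1 arrays.

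In H2122 no TIMP was called against both controls. TIMP1 stood at 10.05 and 10.85 with pBABE, 10.26, 9.9 and 9.81 with K78I, and 10.71, 10.61 and 10.68 with LKB1, a difference of 0.45 ± 0.18 (SE, adjusted p = 0.178). The array labelled pBABE replicate 2 was above every LKB1 array, and without it the difference was 0.65, adjusted p = 0.0319. TIMP2 stood at 6.62 and 8.12 with pBABE, 7.44, 7.04 and 6.66 with K78I, and 7.92, 8.36 and 7.8 with LKB1, a difference of 0.82 ± 0.27 (SE, adjusted p = 0.0872). Without pBABE replicate 2 it was 1.19 (adjusted p = 0.00246), and without the arrays with conflicting labels 1.21 (adjusted p = 0.00816). TIMP3 stood at 8.54 and 7 with pBABE, 9.41, 9.4 and 8.87 with K78I, and 9.42, 9.02 and 9.38 with LKB1. It was called against pBABE (adjusted p = 0.0497) and not against K78I (0.05, adjusted p = 0.976), and grouping by source name turned the difference from both controls from 0.77 to -0.57. Leaving out each H2122 array in turn gave 0.39 to 1.16, and the highest, without pBABE replicate 1, was called (adjusted p = 0.0287), with the lone pBABE array assumed to vary like the other groups. The difference in effect between lines was 0.60 for TIMP1, 0.65 for TIMP2 and 0.48 for TIMP3 (adjusted p 0.268, 0.464 and 0.749), so no TIMP was shown to respond differently in the lines.

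On chromosome 11, 9 consecutive protein-coding genes of the RefSeq order are MMPs: MMP7, MMP20, MMP27, MMP8, MMP10, MMP1, MMP3, MMP12 and MMP13. MMP7 rose in both lines and MMP13 in H2122. The 7 genes between them were not called in either line. MMP1, interstitial collagenase, differed by 0.01 and 0.14, MMP3, stromelysin 1, by 0.04 and 0.03, and MMP10, stromelysin 2, by 0.03 and 0.32 (adjusted p = 0.128 in H2122).

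**Figure D4:**
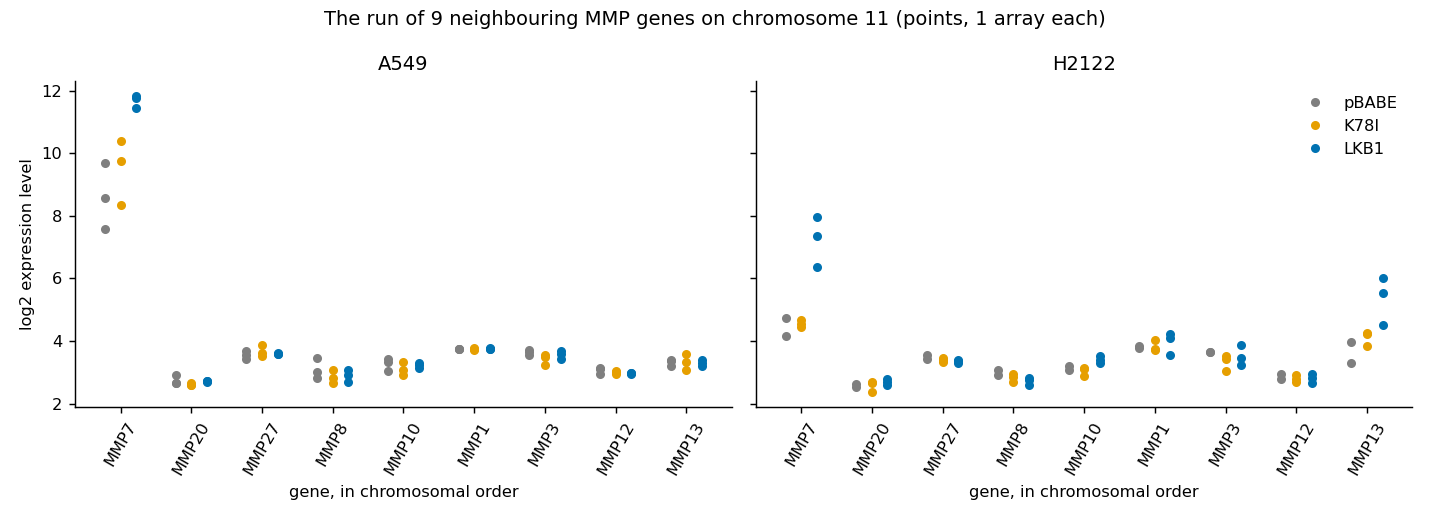
Log2 levels by array (points) of the 9 MMP genes in their order on chromosome 11, in A549 and in H2122 under pBABE, K78I and LKB1. The LKB1 arrays of MMP7 stand above all controls in both lines and those of MMP13 in H2122. The 7 genes between lie at 2.38 to 4.21 on all arrays.

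The gelatinases were not called. MMP2 stood at 4.58, 5.83 and 4.53 on the A549 LKB1 arrays and at 4.33 to 4.59 on the controls, a difference of 0.50 (adjusted p = 0.213) in which LKB1 replicate 2 stood apart. MMP9 stood at 4.09, 5.12 and 4.09 on the same arrays, and the difference was -0.04 (adjusted p = 0.945). In H2122 the LKB1 arrays of MMP9, at 4.68 to 4.99, did not overlap the controls, at 4.07 to 4.65. Those H2122 levels cannot be told from background. ADAM15, a shedding protease, differed by 0.33 (adjusted p = 0.0738) in A549 and -0.01 (adjusted p = 0.974) in H2122. ADAMTS1, which cuts versican, stood at 4.89, 4.48 and 4.92 with LKB1 and 5.23 to 6.11 in the controls in A549, which did not overlap, a difference of -0.76 (adjusted p = 0.0931). ADAM28, a proteolytic ADAM, differed by 1.22 from K78I (adjusted p = 0.061) and by 0.36 from pBABE in H2122, where pBABE replicate 2 stood at 7.92 beside 5.89.

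Every LKB1 array lay above every control array for 8 members in A549 and 12 in H2122, beside 8.46% and 8.54% of all genes. Below every control array lay 3 in A549 and 1 in H2122, beside 6.65% and 8.82%. Against K78I alone 6 members were higher and 0 lower in A549, beside 5.25% of all genes called (3.56% higher and 1.69% lower). In H2122, 8 were higher than with K78I and 0 lower, beside 3.89% (2.98% higher and 0.908% lower). Against pBABE alone 7 were higher and 0 lower in A549, beside 5.5% (3.78% and 1.72%), and 9 and 0 in H2122, beside 5.77% (4.17% and 1.6%). The LKB1 arrays are shared by these comparisons. K78I against pBABE called 0 members in either line (0.0% of all genes), although 2 members in A549 and 11 in H2122 had an unadjusted p under 0.05 in limma, beside 472 and 1260 of all genes. In H2122 even STK11, which differed by 5.0, was not called, so 0 calls do not show that the controls were alike.

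Apart from LKB1, the lines differed in the levels of these genes. Between the controls of A549 and H2122, 9 members were higher in A549 and 11 lower, 31.2% of the 64 beside 40.3% of all genes (20.3% higher and 20.1% lower). MMP7, ADAMTS9 and MMP24, a membrane-type MMP, were higher in A549, with control means of 9.06, 8.56 and 8.45 beside 4.51, 4.03 and 4.77 in H2122. Those H2122 means cannot be told from background, so no fold is given. TIMP3 was lower in A549, with a difference of -3.11, as were ADAM15 (-2.19), MMP15 (-1.90) and ADAM23 (-1.65). The A549 controls of TIMP3 ran from 4.66 to 6.1, in part at levels that cannot be told from background. Its other probe set averaged 4.1 on the A549 controls and 5.87 on the H2122 controls. ADAM12 and ADAM28 were lower in A549 too, where their control means of 4.48 and 4.19 likewise cannot be told from background. These are differences in level between 2 lines and are no effect of LKB1.

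Genes that work with these proteases were read from lists kept apart from the 64. The lists were chosen with earlier results of these data known. Of all genes, 5.49% were called higher and 2.95% lower in A549, and 4.99% and 2.29% in H2122. Of 6 measured genes of the plasminogen system, whose plasmin activates MMP precursors, 4 rose in A549 and 2 in H2122. The urokinase PLAU rose by 1.52 in A549 and 2.03 in H2122 and the tissue activator PLAT by 1.22 and 1.96, and the inhibitor SERPINE2 rose by 1.85 in A549, with a difference between lines of 1.21 (adjusted p = 0.0229). The plasmin inhibitor SERPINF2 rose by 0.56 in A549. On the A549 controls PLAT stood at 4.34 to 5.5 and SERPINF2 at 4.96 to 5.26. Both rises thus start at or near levels that cannot be told from background. Of 7 other inhibitors and inducers, SPOCK1 rose by 3.43 in A549 and 2.18 in H2122, SPOCK3 by 0.60 in A549, and RECK, a membrane-anchored MMP inhibitor, by 0.81 in H2122. SPOCK3 lay at 3.66 to 4.62 on all A549 arrays, which cannot be told from background. The A549 controls of SPOCK1 ran from 4.35 to 6.03, at or near such levels. SPOCK1 stood at 8.17 on H2122 pBABE replicate 2, beside 5.96 to 6.64 on the other H2122 controls. BSG, an MMP inducer also called CD147, fell by 0.41 (-0.41) and TFPI2 by 1.06 (-1.06) in A549. Of 9 genes that carry ADAM10 or ADAM17 to the surface, the tetraspanin TSPAN5 rose by 1.51 in A549 and 1.62 in H2122, TSPAN14 and TSPAN15 by 0.57 and 1.36 in A549, and RHBDF2 by 0.77 in H2122. TSPAN14 was not called in H2122, where it stood at 9.71 to 9.8 with LKB1 and 9.15 to 9.34 in the controls. BMP1, an astacin protease of procollagen, rose by 0.83 and 1.27, and no proprotein convertase (5 measured) was called in either line. Of 9 AP-1 and ETS factors, FOS fell by 2.24 (-2.24) and JUNB rose by 1.01 in A549, and ETS1 rose by 1.34 in H2122. The A549 arrays of FOS overlapped, at 5.49 to 7.33 with LKB1 and 6.9 to 9.4 in the controls. FOS was not called in H2122, where it stood at 5.07 to 6.29 with LKB1 and 6.56 to 8.19 in the controls. No difference between lines passed for these factors or for the genes that carry ADAM10 or ADAM17. Of 5 ADAMTS-like genes, ADAMTSL5 was called, with a rise of 0.64 in H2122 from low control levels of 4.86 to 5.3. The difference between lines also passed for PCSK6 (0.86, adjusted p = 0.0281), BSG (-0.54, adjusted p = 0.0381) and TFPI2 (-1.66, adjusted p = 0.0355). Whether these partners bear on the proteases was not tested.

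**Figure D5:**
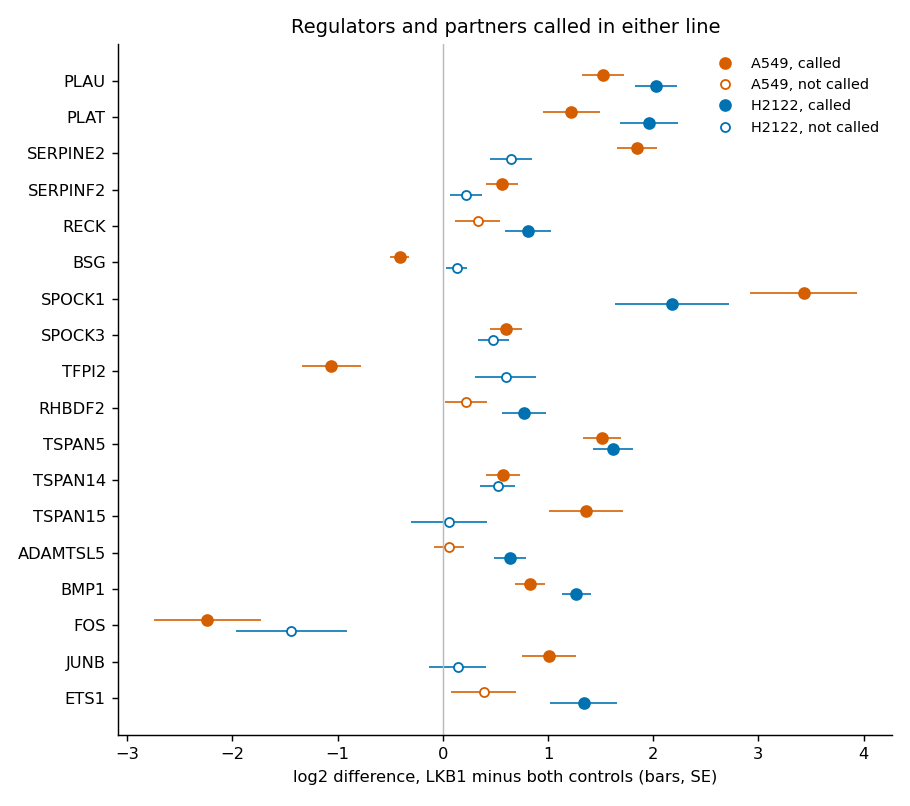
Differences in log2 level between LKB1 and both controls for the partner genes called in either line, with standard errors, in A549 and in H2122. PLAU, PLAT, SPOCK1, TSPAN5 and BMP1 lie above 0 in both lines, and FOS, called in A549 alone, lies below 0 in both.

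Markers of the epithelium and of other cells were read beside these values. Of all genes, 8.44% were called in A549 and 7.28% in H2122, in either direction. In A549, 1 of 5 epithelial markers fell with LKB1 (CDH1, -1.17) and 1 of 6 fibroblast markers rose (PDGFRA, 0.78). CDH1 was not called in H2122, where it stood at 10.73 to 10.86 with LKB1 and 10.19 to 10.51 in the controls. The difference between lines passed for 1 of the 5 epithelial markers, with the lower effect in A549, beside 3.6% of all genes. In H2122, 1 of 5 macrophage markers rose (CSF1R, 0.60) and 1 of 4 endothelial markers fell (PECAM1, -0.79). PDGFRA on the A549 controls (4.03 to 4.59) and CSF1R on the H2122 controls (4.39 to 4.78) cannot be told from background. The mean of 6 fibroblast markers stood between 3.64 and 3.98 on all arrays, near the low end, while the mean of the 5 macrophage markers stood between 4.46 and 4.94, with single genes from 2.77 to 9.45. The part of these markers in the protease levels was not tested.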

How the data were processed

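Per the submitters' processing notes, the authors used Affymetrix Expression Console 1.1 and RMA, and the deposited table holds 1 log2 level for each probe set and array. RMA gives all arrays like distributions, so a shift of most genes one way cannot be seen (array medians 5.62 to 5.73). For the array's annotation no build is named, so genes are given by symbol.

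Probe sets with 1 symbol in the platform annotation (19181 of 33297) were kept, and the brightest stood for each of 17958 genes. All genes were fitted with limma 3.58.1 in R 4.3.3 (lmFit and eBayes over 6 group means, 11 residual and 3.8 prior degrees of freedom), with Benjamini-Hochberg adjustment over all genes and a threshold of 0.05. The fit was tested on simulated data. LKB1 was set against the equally weighted mean of pBABE and K78I. STK11 had an exact permutation test. Groups came from sample titles. Which ADAMs lack the catalytic motif came from textbook knowledge.

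The members and lists were chosen with earlier results of these data known. Named are members called in any LKB1 comparison or in the difference between lines, ADAM19, ADAM12, MMP7, ADAMTS16, the TIMPs, widely studied members, bright or widely ranging members, STK11 and called partner genes. Some allowed by this rule are not named. The 18 cell cycle genes were listed after the data had been seen, and members named for a promoter motif or a place on chromosome 11 are named for that alone. Promoter sequences are RefSeq's (GRCh38.p14). Alternatives covered labels, left-out arrays, blocks, filters, scaling, probe sets, priors, weights and controls.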

Additional observations from a re-analysis of the deposited data

Results flagged for a closer look

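The effect of LKB1 differed between the lines, by limma's test of the difference itself, for 3 of the 64 genes. The A549 effect minus the H2122 effect was -2.5 for MMP14, -1.5 for MMP13 and -0.69 for ADAM9. In each the effect was higher in H2122, and the LKB1 arrays of that line lay above all 5 of its control arrays. MMP14 kept its call in 29 of 30 alternatives, and grouping by source name (-1.49, adjusted p = 0.353) ended it. MMP13 lost its call in 12 of 29 alternatives and ADAM9 in 5 of 30, among them the one without the 3 arrays with conflicting labels for both.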

How the results depend on the processing

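Grouping by source name gave 3 calls in A549 and 0 in H2122 against both controls, 0 in the difference between lines, 3 in A549 and 0 in H2122 against K78I, and 3 and 1 against pBABE (of all genes 1041, 1, 175, 538, 0, 633 and 2). It also reversed TIMP3 in H2122 to -0.57 (adjusted p = 0.66). Array weights gave 18, 14, 6, 12 and 19 calls for A549, H2122, the difference, A549 against K78I and H2122 against K78I, and 20 for A549 against pBABE (of all genes 3844, 2264, 1706, 1930, 3721 and 3829). Without the 3 arrays with conflicting labels the difference had 1 call, and H2122 had 3 against K78I and 3 against pBABE (209, 200 and 214 of all genes). Without the 3 control arrays lowest in cell cycle genes the difference had 5, A549 against pBABE 11 and H2122 against K78I 13 (844, 1424 and 1806). A fit per line gave 3 in A549 against K78I and 4 against pBABE (407 and 548). Leaving out 1 array at a time, other than the 2 of H2122 pBABE, gave 5 to 11 calls in A549 (715 to 1924 of all genes). It gave 7 to 9 in H2122 (755 to 1712) and 1 to 4 in the difference (310 to 751). Against K78I it gave 3 to 9 in A549 (421 to 1625) and 3 to 9 in H2122 (281 to 1023). Against pBABE it gave 5 to 10 in A549 (505 to 1520) and 6 to 10 in H2122 (639 to 1406). K78I against pBABE in H2122 called 0 members throughout. Counts without an H2122 pBABE array are not given, since the 1 array left cannot show the spread of its group. The causes were not tested. Correlations between same-numbered arrays of different groups were taken after each gene's group mean was subtracted. They ran from -0.644 to 0.352 in A549 and from 0.064 to 0.42 in H2122 (6 of 7 pairs over 0.1). Since not every pair passed 0.1, the numbers were not taken as pairing. A replicate block gave 5 calls in the difference (628 of all genes), and ADAMTS16 in H2122 0.92 (adjusted p = 0.0536). MMP13 had no value under the filter on the dimmest 30% of genes.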
